A study of Homo sapiens with 6 samples.

Results

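The mitochondrial genome transcripts of TPC1 cells, a line established from papillary thyroid cancer, were taken as every gene that the deposited table places on chromosome MT, 37 of 58735 genes. By biotype they were 13 mRNAs, 2 rRNAs and 22 tRNAs, with 28 genes on the plus strand and 9 on the minus strand. RNA sequencing had been done in 6 libraries. Cells of 3 libraries carried si-circ_0000839, an siRNA directed at a circular RNA of that name, and cells of the other 3 carried a negative-control siRNA (NC). Transfection lasted 60 h in both groups, and the labels give no other difference. Separate cultures are not stated for the replicates, so each p-value reflects the spread among these 6 libraries, which may be technical. The circular RNA was not matched to a row of the table, and its depletion was not checked here.

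Mitochondrial DNA is a small circular genome that is transcribed from both strands into long precursors. The tRNAs lie between most of the mRNAs and rRNAs, and their excision, by the nuclear-encoded RNase P complex and the nuclease ELAC2, releases the neighbouring RNAs. The mRNAs encode core subunits of respiratory complexes I, III and IV and of the ATP synthase, and the rRNAs and tRNAs serve the ribosomes that translate them inside the organelle. Most genes, on the plus strand of the reference, are transcribed from the heavy strand; MT-ND6 and a group of tRNAs are transcribed from the light strand.

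Sequences were read from GENCODE release 29 transcripts (GRCh38), whose coordinates were those of the file for all 37 genes. The minus-strand tRNA genes that carried nearly all tRNA reads, and their low neighbour MT-TA, are shown 5′ to 3′ as DNA, with the anticodon in capitals. A script placed each anticodon in the middle of a 7-base loop closed by a stem of 5 pairs.
MT-TA: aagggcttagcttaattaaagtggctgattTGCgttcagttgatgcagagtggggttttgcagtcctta
MT-TN: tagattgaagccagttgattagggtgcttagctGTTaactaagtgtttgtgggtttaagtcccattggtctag
MT-TC: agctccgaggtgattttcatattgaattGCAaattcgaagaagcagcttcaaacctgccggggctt
MT-TY: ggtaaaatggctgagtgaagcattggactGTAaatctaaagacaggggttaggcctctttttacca
MT-TP: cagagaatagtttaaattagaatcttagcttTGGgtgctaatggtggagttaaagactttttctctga

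MT-TA (alanine) runs from 5587 to 5655, MT-TN (asparagine) from 5657 to 5729, MT-TC (cysteine) from 5761 to 5826, MT-TY (tyrosine) from 5826 to 5891 and MT-TP (proline) from 15956 to 16023, all on the minus strand. The last 80 bases of MT-ATP8 and of MT-ND4L are shown because each gene ends inside the next one, with the shared bases in capitals, 46 in MT-ATP8 with MT-ATP6 and 7 in MT-ND4L with MT-ND4. These stretches run from 8493 to 8572 and from 10687 to 10766 on the plus strand.
MT-ATP8: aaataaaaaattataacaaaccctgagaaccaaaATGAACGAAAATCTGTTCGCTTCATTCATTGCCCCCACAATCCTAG
MT-ND4L: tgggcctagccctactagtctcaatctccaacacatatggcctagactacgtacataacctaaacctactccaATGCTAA

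The libraries held 18399558 to 19334633 reads, recovered from the FPKM values (fragments scaled by gene length and by a library total). The total implied by the FPKM values was not the number of recovered reads. It was 18337464 against 18888554 reads in si-circ_0000839 replicate 1, and 18178893 against 18980039 in NC replicate 2. In every other library it lay above the reads, as in NC replicate 3, with 19040754 against 18603815. Comparisons in FPKM and in shares of reads can therefore differ. PAX8, which marks the thyroid lineage, was at 96.3 ± 5.26 FPKM after si-circ_0000839 and 95.8 ± 2.21 FPKM in NC (SD, n = 3 each). FOXE1, another factor of that lineage, was at 11.6 and 10.9 FPKM, and the leukocyte markers PTPRC and CD3E had 0 reads, as did the thyroid genes TSHR and NKX2-1. Of 3 fibroblast markers, LUM, a matrix proteoglycan, had 13.6, 15.4 and 18.4 FPKM after si-circ_0000839, against 24.7, 19.7 and 23.01 FPKM in NC. All si-circ_0000839 libraries lay below NC, and the log2 change of -0.49 missed the threshold (adjusted p = 0.108 in limma). COL1A1, a collagen chain, was at 0.565 FPKM after si-circ_0000839 and 0.370 FPKM in NC, and DCN was at 0.0028 FPKM in both. The part of these markers in the mitochondrial values was not tested.

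No mitochondrial gene passed the threshold between the groups, while most had a somewhat lower mean after si-circ_0000839. The mean was lower for 29 of the 37 genes and higher for 6, and 2 had 0 reads in every library. Of these, 9 of the lower and 4 of the higher genes were tRNAs with a mean under 10 reads. The log2 change was below 0 for 25 of the 31 tested mitochondrial genes, against 48.2% of all tested genes. Among the 15 mRNAs and rRNAs, all of which were tested, 13 were lower. Their ratios of group means ran from 0.829 for MT-ND4L to 1.05 for MT-ATP8. In bulk RNA, fewer cells of a type and less RNA per cell cannot be told apart.

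The test was limma on log2(FPKM + 1), two-sided, over the 10674 genes whose mean reached 1 FPKM. It called 0 of the 31 mitochondrial genes that entered at a Benjamini-Hochberg adjusted p under 0.05. Of all tested genes it called 0.384%, 0.131% higher and 0.253% lower, so a count of 0 among 31 genes is uninformative. At an unadjusted p under 0.05 there were 6, namely MT-TT, MT-TS2, MT-TY, MT-RNR2, MT-TL1 and MT-ND4L, where 12.6% of all tested genes had such a p. For 3 of the 31 all si-circ_0000839 libraries lay below NC and for 0 above, against 7.55% and 10.6% of all tested genes. The median log2 change of the 15 mRNAs and rRNAs was -0.13, beside 0.0057 over all tested genes, of which 48.2% were below 0. These 15 genes share precursor transcripts and libraries, so they are not independent of each other. Their median was -0.05 under quantile normalization and after removal of a trend on GC content and length from each library, with 11 of 15 below 0 in both cases. It was -0.06 without NC replicate 2 and -0.07 without NC replicate 1, and -0.21 without NC replicate 3.

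Mitochondrial genes took 1.34%, 1.37% and 1.33% of recovered reads in si-circ_0000839 replicates 1, 2 and 3, against 1.57%, 1.60% and 1.38% in NC replicates 1, 2 and 3. The groups did not overlap, although NC replicate 3 lay just above the highest si-circ_0000839 library. As shares of the summed FPKM they did overlap, with NC replicate 3 at 6.24% and si-circ_0000839 replicate 2 at 6.46%. The 95% Wilson interval of each share of reads was at most 0.0057 percentage points to either side, which covers counting error only. For the share of reads the ratio of the group means was 0.888, and it ran from 0.849 to 0.914 when any 1 library was left out.

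The mRNAs took 0.987%, 0.966% and 0.930% of reads after si-circ_0000839, against 1.12%, 1.15% and 0.953% in NC, so the groups overlapped. The rRNAs took 0.322%, 0.365% and 0.368% after si-circ_0000839, against 0.411%, 0.413% and 0.395% in NC, so they did not. The tRNAs took 0.0350%, 0.0368% and 0.0329% after si-circ_0000839, against 0.0341%, 0.0452% and 0.0325% in NC, with NC replicate 2 above the rest.

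**Figure D1:**
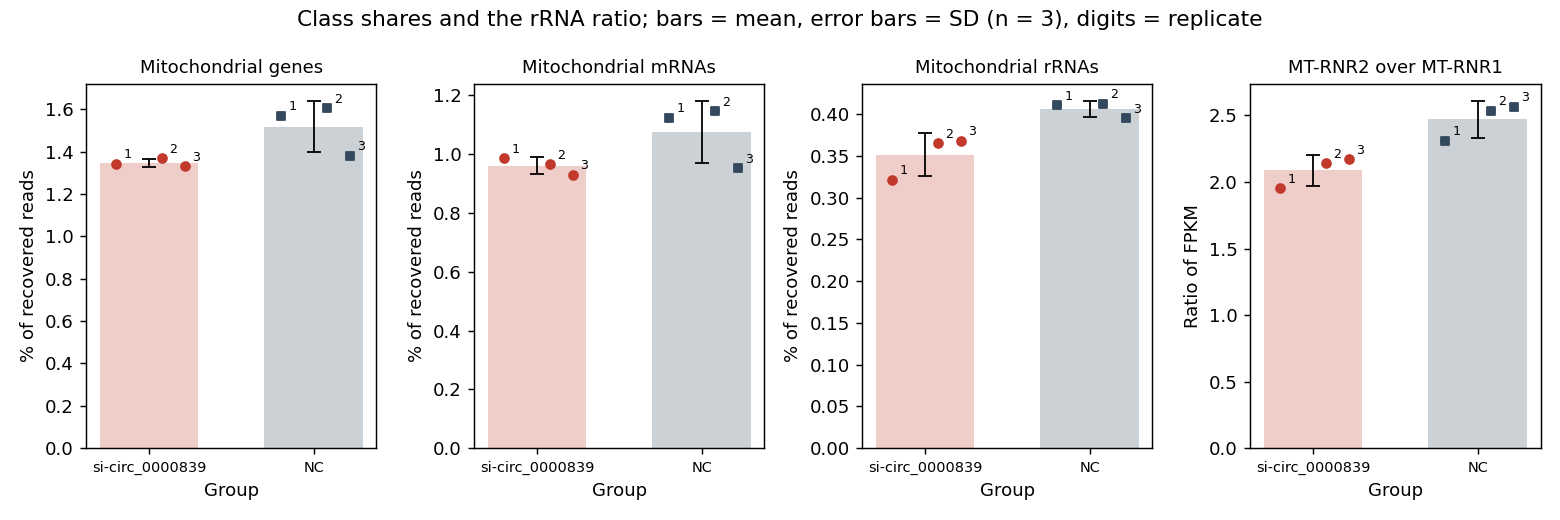
Share of recovered reads (%) on all mitochondrial genes, mRNAs and rRNAs, and the FPKM ratio of MT-RNR2 to MT-RNR1, by group; points are libraries numbered by replicate, bars are means and error bars are SD (n = 3). The 3 si-circ_0000839 libraries lie below the 3 NC libraries for all mitochondrial genes, for the rRNAs and for the ratio, and the groups overlap for the mRNAs.

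Within the mitochondrial reads the classes kept close proportions. The mRNAs made up 71.3% ± 1.89 of them after si-circ_0000839 and 70.7% ± 1.47 in NC, and the rRNAs 26.1% ± 1.93 and 26.8% ± 1.56 in the same order (SD, n = 3 each). The tRNAs made up 2.59% ± 0.109 after si-circ_0000839 and 2.45% ± 0.332 in NC. For the mRNAs and rRNAs the difference was smaller than either SD. For the tRNAs it was smaller than the SD of NC but larger than that of si-circ_0000839. The groups overlapped in each class.

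The rRNA genes differed from each other in their values. MT-RNR2 encodes the 16S rRNA of the large mitochondrial ribosomal subunit. It had 1618, 1789 and 1843 FPKM in the si-circ_0000839 libraries, against 2042, 2225 and 1998 FPKM in NC. All 3 si-circ_0000839 libraries were below all 3 NC libraries, as for 7.55% of tested genes. The log2 change was -0.26 (SE 0.09), which did not pass in limma (adjusted p = 0.281). With limma's voom on the recovered reads the change was -0.26 and the adjusted p = 0.0977. Under quantile normalization it was -0.12.

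MT-RNR1 encodes the 12S rRNA of the small subunit and lies upstream on the same strand, with MT-TV between it and MT-RNR2. It had 828, 836 and 848 FPKM after si-circ_0000839, against 884, 878 and 779 FPKM in NC, and the groups overlapped. The log2 change was -0.01 (SE 0.08, adjusted p = 0.961 in limma), and its sign turned in 6 alternative settings. The FPKM ratio of MT-RNR2 to MT-RNR1, which a scaling factor per library cannot alter, was 1.95, 2.14 and 2.17 after si-circ_0000839, against 2.31, 2.53 and 2.56 in NC. The groups did not overlap. This ratio was chosen after its values were seen and was not tested.

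Among the mRNAs the levels spanned from 32.3 FPKM for MT-ATP8 to 2118 FPKM for MT-ND3 as means over the 6 libraries. MT-ND3, MT-CO1, MT-CO3 and MT-CO2 formed the top level, with means of 1822 to 2118 FPKM and overlapping ranges. They were followed by MT-ATP6 at 1085 FPKM, whose range of 996 to 1247 FPKM lay clear of them. Next came MT-ND4, which reached at most 655 FPKM and lay clear of MT-ATP6. MT-ND4, MT-ND1, MT-ND4L and MT-CYB, with means from 557 down to 446 FPKM, overlapped their neighbours among these genes. Below them MT-ND2 at 349, MT-ND6 at 260, MT-ND5 at 173 and MT-ATP8 at 32.3 FPKM each lay clear of the next higher gene. Among the 20 genes of any chromosome with the highest mean FPKM, 7 were mitochondrial, namely MT-TN, MT-ND3, MT-CO1, MT-CO3, MT-TC, MT-RNR2 and MT-CO2.

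**Figure D2:**
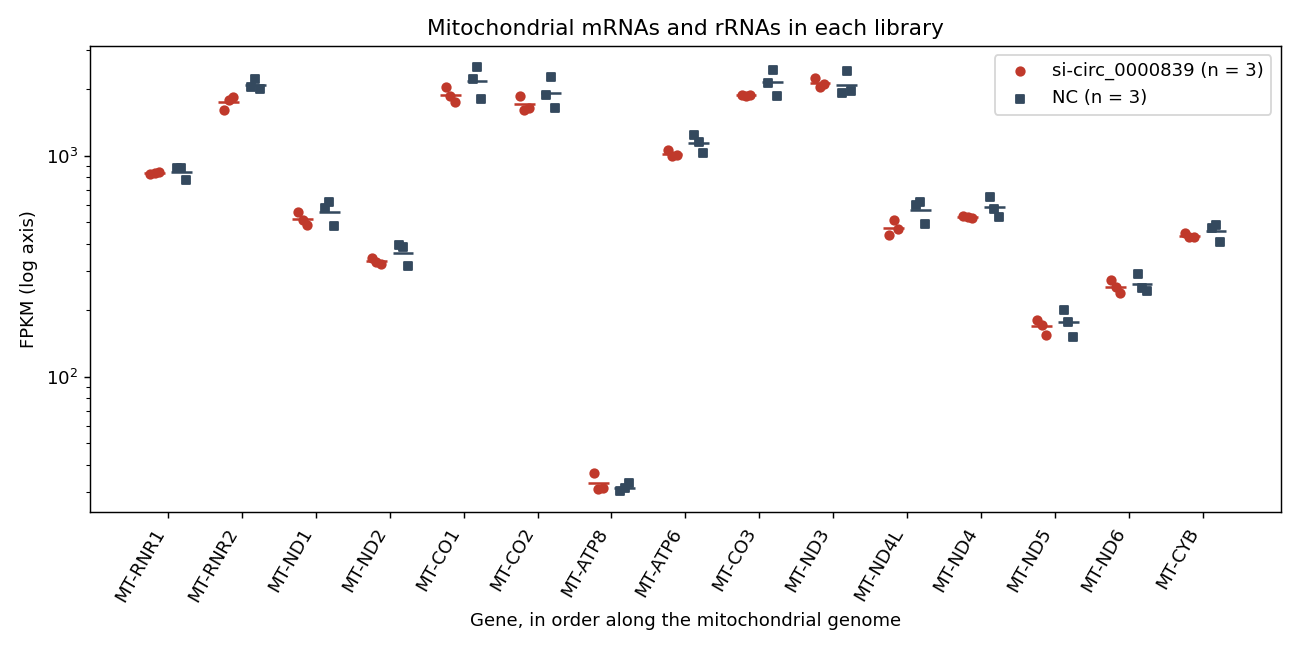
FPKM (log axis) of the 13 mRNAs and 2 rRNAs in each library, in the order of the genes along the mitochondrial genome; circles are si-circ_0000839 libraries, squares are NC libraries and lines are group means (n = 3 each). MT-ATP8 lies far below its neighbour MT-ATP6, and of these 15 genes MT-RNR2 is the one whose groups do not overlap.

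MT-CO1, MT-CO2 and MT-CO3 encode the catalytic core of cytochrome c oxidase, complex IV. MT-CO1 had 2048, 1871 and 1747 FPKM after si-circ_0000839, against 2233, 2521 and 1808 FPKM in NC. NC replicate 2 was the highest and the groups overlapped. The log2 changes of the 3 genes lay between -0.20 and -0.16, with adjusted p of 0.491 to 0.616 in limma. Without NC replicate 2 they were -0.09 for MT-CO1, -0.04 for MT-CO2 and -0.09 for MT-CO3. Without NC replicate 3 they were -0.33, -0.27 and -0.29 for the same genes. MT-CYB, cytochrome b of complex III, averaged 436 ± 10.4 FPKM after si-circ_0000839 and 456 ± 41.6 FPKM in NC (SD, n = 3 each; adjusted p = 0.816 in limma).

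The 7 mRNAs of complex I, the NADH dehydrogenase, had log2 changes between -0.27 and 0.03. MT-ND3 had 2248, 2045 and 2122 FPKM after si-circ_0000839, against 1919, 2410 and 1966 FPKM in NC, so the groups overlapped and NC replicate 2 was again the highest. Its log2 change was 0.03 (SE 0.10, adjusted p = 0.929 in limma). MT-ND1, MT-ND2 and MT-ND5 had ratios of group means of 0.927, 0.912 and 0.961.

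MT-ND4L and MT-ND4, whose reading frames overlap on one mRNA, were close in level. MT-ND4L had 438, 515 and 467 FPKM after si-circ_0000839, against 600, 618 and 493 FPKM in NC. MT-ND4 had 533, 527 and 524 FPKM after si-circ_0000839, against 655, 573 and 530 FPKM in NC. For both genes NC replicate 3 lay beside the si-circ_0000839 libraries and the other NC libraries lay above. MT-ND4L had the lowest log2 change among the mRNAs, -0.27 (SE 0.10), and missed the threshold (adjusted p = 0.318 in limma).

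MT-ND6 is the one mRNA on the minus strand. It had 273, 255 and 241 FPKM after si-circ_0000839, against 292, 253 and 245 FPKM in NC, with the groups overlapping (log2 change -0.04, SE 0.09, adjusted p = 0.905 in limma). Its level was 0.276 ± 0.0083 times the mean of the 12 plus-strand mRNAs after si-circ_0000839 and 0.259 ± 0.0332 times in NC (SD, n = 3 each). This difference was smaller than the SD of NC but larger than that of si-circ_0000839, and the groups overlapped. The strand setting of the counting is not given in the sources used here, so reads of MT-ND6 and reads of antisense RNA over it cannot be told apart.

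MT-ATP6 and MT-ATP8 encode membrane subunits of the ATP synthase and are carried on one mRNA with overlapping frames. MT-ATP6 had 1063, 996 and 1014 FPKM after si-circ_0000839, against 1247, 1161 and 1029 FPKM in NC. MT-ATP8 had 36.6, 30.9 and 31.5 FPKM after si-circ_0000839, against 30.4, 31.4 and 33.0 FPKM in NC. MT-ATP6 was thus 29.02 to 32.2 times as high as MT-ATP8 after si-circ_0000839 and 31.2 to 41.1 times in NC, per length. In MT-ATP8 161 of 207 bases belong to no other gene, and in MT-ND4L 290 of 297. The way fragments that touch both genes of a pair were counted is not given in the sources used here, and its part in the low value of MT-ATP8 was not tested.

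**Figure D3:**
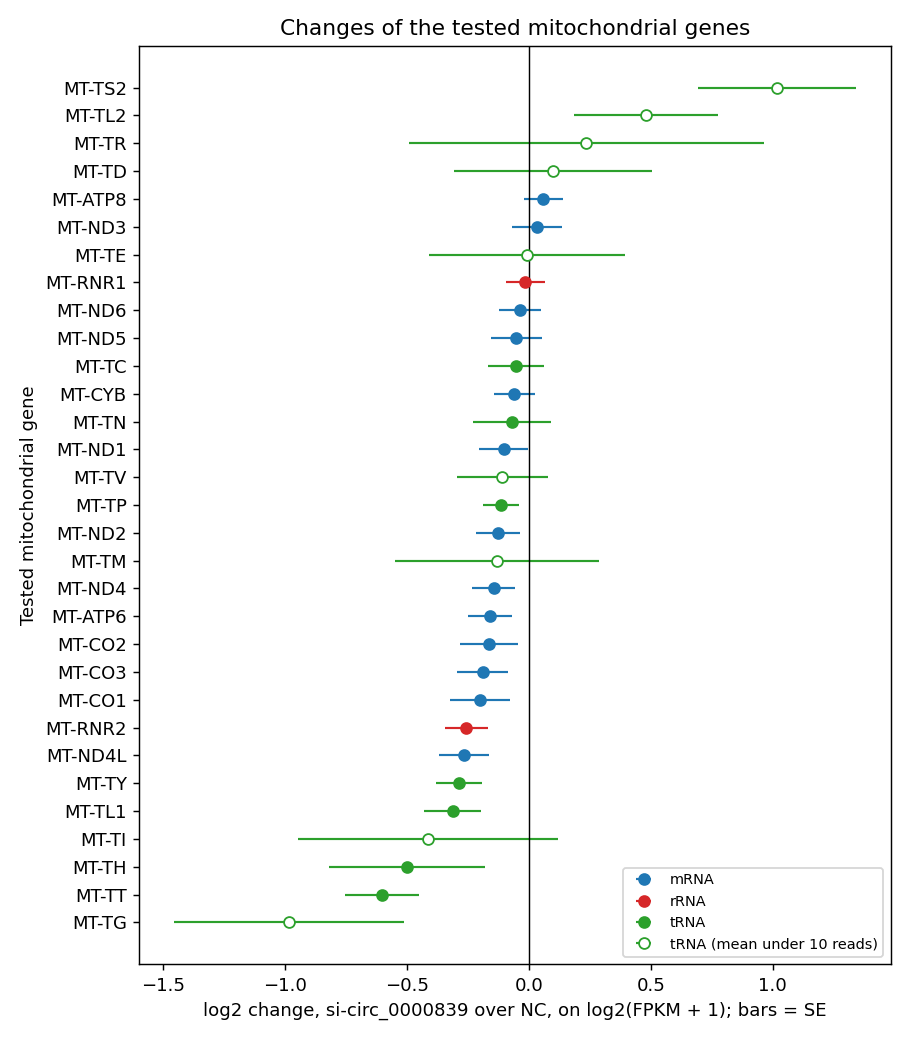
Log2 change, si-circ_0000839 over NC, on the log2(FPKM + 1) scale with its SE for the 31 tested mitochondrial genes, in order of the change; colours give the class and open circles are tRNAs with a mean under 10 reads. The mRNAs and rRNAs lie between -0.27 and 0.06, and the widest spread is among tRNAs with few reads.

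Reads on the tRNA genes were concentrated on a few minus-strand genes. MT-TN had 3917, 4257 and 3497 reads after si-circ_0000839, against 3708, 5306 and 3466 reads in NC. MT-TC had 2349, 2489 and 2217 reads after si-circ_0000839, against 2332, 2848 and 2205 reads in NC. Both were highest in NC replicate 2, and their groups overlapped. Together they held 94.4% to 94.9% of tRNA reads after si-circ_0000839 and 93.1% to 95.1% in NC. The 8 minus-strand tRNA genes held 98.4% to 98.6% of tRNA reads after si-circ_0000839 and 97.3% to 98.6% in NC. As for MT-ND6, the strand setting is not known. Reads of these tRNAs and reads of plus-strand RNA over their genes cannot be told apart.

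In FPKM MT-TN averaged 2934 over the 6 libraries, the fourth highest value of the whole table, and MT-TC 1939. Fragment length is not stated in the sources used here, so FPKM of genes this short is uncertain. MT-TA, which lies on the same strand with 1 base between it and MT-TN, had 0, 1 and 2 reads after si-circ_0000839, against 2, 1 and 1 in NC. The step from MT-TA to MT-TN was thus seen in all 6 libraries. MT-TN and MT-TC are separated by 31 bases that hold no annotated gene, the stretch known as the origin of light-strand replication.

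MT-TY, which shares 1 base with MT-TC, had 124, 112 and 115 reads after si-circ_0000839, against 131, 149 and 151 in NC. In FPKM these were 102, 86.3 and 94.7 after si-circ_0000839, against 102, 124 and 120 in NC, which overlapped narrowly. Its log2 change was -0.29 (SE 0.09, adjusted p = 0.246 in limma). MT-TP, which borders the control region, had 94.6, 94.96 and 96.7 FPKM after si-circ_0000839, against 99.3, 113 and 98.1 FPKM in NC. All si-circ_0000839 libraries lay below NC, as for 7.55% of tested genes. The log2 change was -0.11 (SE 0.07, adjusted p = 0.572 in limma). For MT-TP it was 0.06 after the GC and length trend was removed and -0.05 without NC replicate 2.

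**Figure D4:**
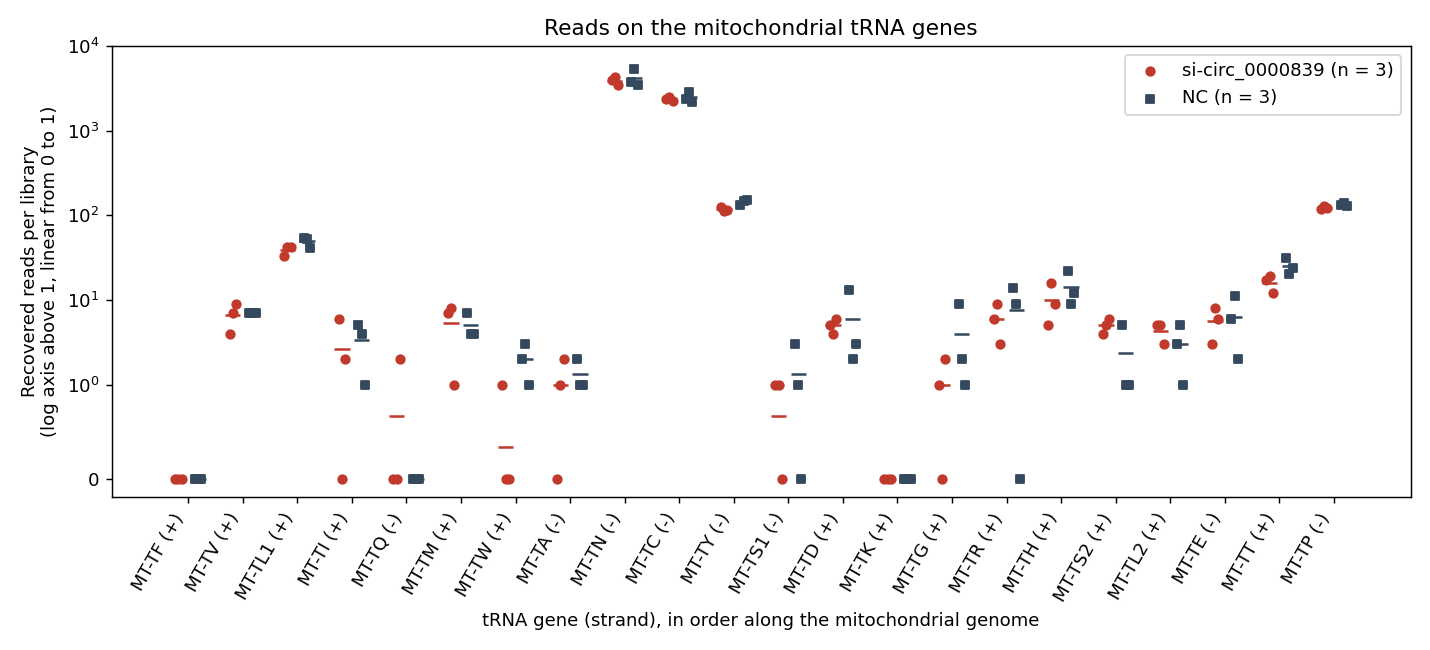
Recovered reads on each of the 22 tRNA genes in each library (log axis above 1, linear below), in the order of the genes along the mitochondrial genome, with the strand in brackets; circles are si-circ_0000839 libraries, squares are NC libraries and lines are group means (n = 3 each). MT-TN and MT-TC reach 2205 to 5306 reads, MT-TY and MT-TP 112 to 151, and every other tRNA gene stays at 54 reads or fewer.

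On the plus strand the 14 tRNA genes together had 94, 115 and 95 reads after si-circ_0000839, against 172, 118 and 96 reads in NC. MT-TL1, a leucine tRNA just downstream of MT-RNR2, averaged 27.6 ± 3.30 FPKM after si-circ_0000839 and 34.7 ± 5.17 FPKM in NC (SD, n = 3 each; adjusted p = 0.309 in limma). MT-TT, the threonine tRNA next to MT-CYB, had 14.05, 14.6 and 9.88 FPKM after si-circ_0000839, against 24.2, 16.7 and 19.1 FPKM in NC. These rested on 17, 19 and 12 reads after si-circ_0000839 and on 31, 20 and 24 reads in NC. All si-circ_0000839 libraries lay below NC, as for 7.55% of tested genes. MT-TT had the smallest p of all mitochondrial genes (log2 change -0.60, SE 0.15, adjusted p = 0.136 in limma). It passed when only genes whose mean reached 5 FPKM were tested (adjusted p = 0.0465). MT-TH, a histidine tRNA, averaged 7.61 ± 3.94 FPKM after si-circ_0000839 and 10.9 ± 4.88 FPKM in NC (SD, n = 3 each; adjusted p = 0.566 in limma).

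The other 15 tRNA genes had a mean under 10 reads, with 0 to 14 reads in any library. Their reads summed to 43, 48 and 42 after si-circ_0000839, against 76, 50 and 22 in NC, with NC replicate 1 at the top and NC replicate 3 at the bottom. MT-TS2, a serine tRNA, had 4, 5 and 6 reads after si-circ_0000839, against 5, 1 and 1 in NC. Its log2 change of 1.02 (SE 0.33) was the largest upward one and missed the threshold (adjusted p = 0.242 in limma). It passed without NC replicate 1 (log2 change 1.51, adjusted p = 0.00141), a fit in which the NC group held 1 read in each of its libraries. For MT-TM, MT-TD and MT-TR the sign of the log2 change was opposite to that of the difference in mean FPKM. MT-TF and MT-TK had 0 reads in all 6 libraries, where 3 reads in a library would have given at most 2.32 and 2.36 FPKM.

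Levels were set beside the room that each gene has between its neighbours. The clear stretch of a gene is the run of bases around and within it that no other annotated gene covers on either strand. Among the 17 genes with a clear stretch of at most 80 bases, all of them tRNAs, mean FPKM ran from 0.252 to 105, with a median of 4.004. The 12 genes with over 400 bases ran from 173 to 2038 FPKM. MT-TN, with 105 bases, and MT-TC, with 96, stood apart from the other short genes. MT-TK also had 96 clear bases and no reads, and MT-ATP8 had 162 bases and 32.3 FPKM. This is a description of genes that share libraries and fragment lengths, and the part of fragment length in it was not tested.

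**Figure D5:**
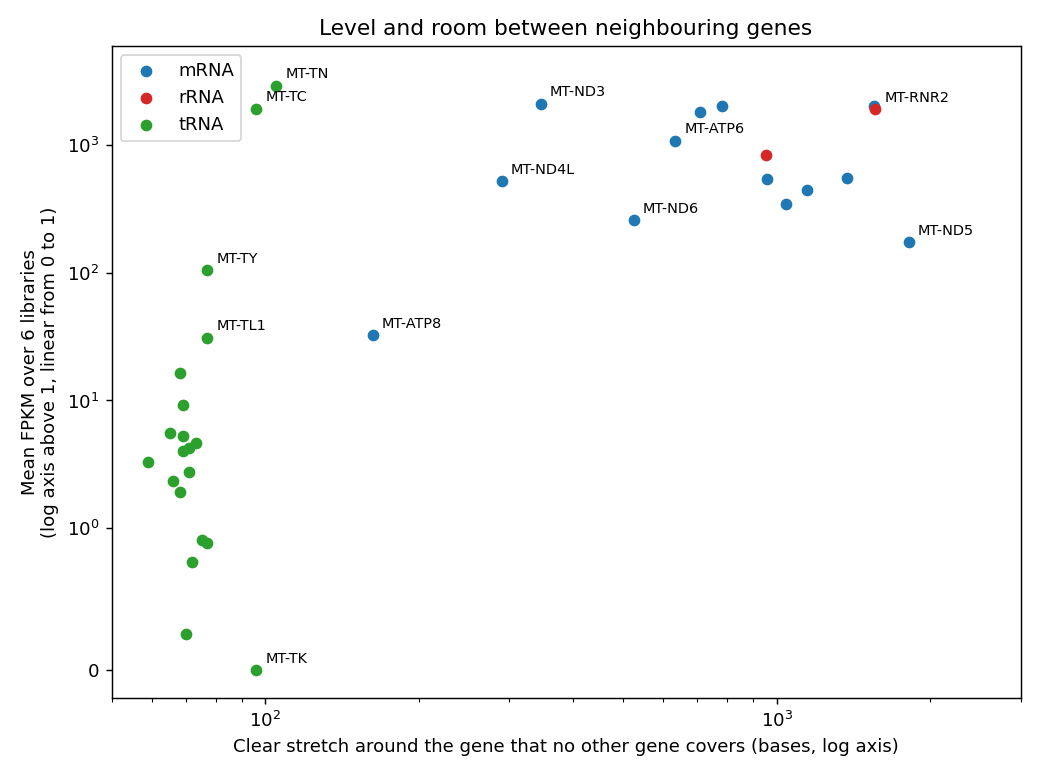
Mean FPKM over the 6 libraries (log axis above 1, linear below) against the clear stretch around each gene in bases (log axis), for the 35 genes whose clear stretch is bounded on both sides; colours give the class. Most tRNAs lie at the lower left, while MT-TN and MT-TC lie level with MT-ND3 and MT-RNR2 despite clear stretches of 105 and 96 bases.

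Nuclear copies of mitochondrial DNA can share reads with mitochondrial genes. Of 407 nuclear genes named as such copies, 21 had a read and 3 reached a mean of 1 FPKM, all 3 on chromosome 1. MTND2P28 had 44.5, 42.3 and 43.6 FPKM after si-circ_0000839, against 41.9, 40.4 and 41.1 FPKM in NC. MTATP6P1 had 21.6, 21.4 and 21.4 FPKM after si-circ_0000839, against 27.8, 36.0 and 22.4 FPKM in NC. MTCO1P12 had 4.67, 4.32 and 4.05 FPKM after si-circ_0000839, against 5.34, 7.06 and 4.80 FPKM in NC. None passed in limma (adjusted p = 0.662, 0.281 and 0.288). For none of the 3 did the groups overlap. MTND2P28 was higher in every si-circ_0000839 library, as for 10.6% of tested genes. MTATP6P1 and MTCO1P12 were lower in every si-circ_0000839 library, as for 7.55%, with NC replicate 2 the highest.

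These copies matched their mitochondrial genes at 98.4%, 98.5% and 98.7% of aligned bases in the reference. Of all runs of 100 bases, 26.1% of those in MT-ND2, 27.9% of those in MT-CO1 and 11.9% of those in MT-ATP6 were also present in a named copy. The shares were 10.97% for MT-ND1, 4.38% for MT-CO3 and 2.39% for MT-CO2. For both rRNAs and for MT-ND3, MT-ND4, MT-ND4L, MT-ND5, MT-ND6, MT-CYB and MT-ATP8 the share was 0. Levels of MT-ND1, MT-ND2, MT-CO1, MT-CO2, MT-CO3 and MT-ATP6 and of their copies are therefore uncertain with respect to each other. The 22 tRNA genes are shorter than 100 bases and were not screened for shared runs.

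As shares of the mitochondrial reads, MT-RNR1, MT-ND3 and MT-CYB were higher in all 3 si-circ_0000839 libraries than in any NC library. These were 3 of the 37 genes, and 0 lay below NC in this way. In FPKM, a different measure, the si-circ_0000839 libraries lay above NC for 10.6% of all tested genes. For MT-CYB the shares were 3.69%, 3.66% and 3.68% after si-circ_0000839, against 3.50%, 3.32% and 3.46% in NC. MT-RNR1 had 5.71%, 5.93% and 6.08% after si-circ_0000839, against 5.48%, 5.002% and 5.51% in NC. These genes were chosen after their values were seen, the shares of all 37 genes sum to a fixed total, and no test was made.

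The highest library of a gene was mostly an NC library. By FPKM, 8 of the 15 mRNAs and rRNAs were highest in NC replicate 2, 6 in NC replicate 1 and 1 in si-circ_0000839 replicate 1. In NC replicate 3, 5 were lowest. The total implied by FPKM lay below the recovered reads in NC replicate 2 and above them in NC replicate 3. Ranks by share of reads can therefore differ. MT-CO3 had 1889, 1866 and 1885 FPKM after si-circ_0000839, against 2141, 2453 and 1876 FPKM in NC.

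Nuclear genes that act on mitochondrial DNA and RNA were described from lists. Over all tested genes 0.384% passed the threshold, so a count of 0 is uninformative for lists this short. Of 11 genes of mitochondrial transcription 8 were tested and 0 passed, with a median log2 change of -0.06. POLRMT, the mitochondrial RNA polymerase, was at 27.9 ± 2.58 FPKM after si-circ_0000839 and 25.8 ± 2.27 FPKM in NC, but it was not among the 2 genes with the smallest p. Those were TFB1M, the methyltransferase of the 12S rRNA, at 4.27 and 4.90 FPKM, and TOP1MT, the mitochondrial topoisomerase I, at 7.50 and 8.11 FPKM (adjusted p = 0.625 and 0.650 in limma).

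Of 22 genes of mitochondrial RNA processing and decay 19 were tested and 0 passed (median log2 change -0.01). PDE12, which trims poly(A) tails in mitochondria, was at 4.51 FPKM after si-circ_0000839 and 4.06 FPKM in NC, and FASTKD1 at 2.20 and 1.86 FPKM (adjusted p = 0.610 and 0.612 in limma). Of 22 genes that charge mitochondrial tRNAs all were tested and 0 passed (median -0.0078). In that list PARS2, which charges the proline tRNA, was at 4.50 FPKM after si-circ_0000839 and 3.89 FPKM in NC (adjusted p = 0.537 in limma).

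Of 18 genes of mitochondrial DNA maintenance 17 were tested and 0 passed (median -0.04). TWNK, the helicase of mitochondrial DNA, had 12.3, 11.6 and 11.8 FPKM after si-circ_0000839, against 9.86, 9.62 and 10.1 FPKM in NC. The groups did not overlap, and the log2 change of 0.25 (SE 0.07) missed the threshold (adjusted p = 0.168 in limma). SUCLA2, a subunit of succinyl-CoA ligase, was at 1.46 FPKM after si-circ_0000839 and 1.94 FPKM in NC (adjusted p = 0.278 in limma).

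Of 18 genes of mitochondrial rRNA modification and ribosome assembly 17 were tested and 0 passed (median 0.05). TRMT61B, a methyltransferase that acts on mitochondrial tRNA and 16S rRNA, had 5.38, 5.34 and 6.66 FPKM after si-circ_0000839, against 4.81, 4.04 and 4.83 FPKM in NC. The groups did not overlap, and the adjusted p was 0.270 in limma. ERAL1, which binds the 12S rRNA, was at 31.8 FPKM after si-circ_0000839 and 28.8 FPKM in NC (adjusted p = 0.509 in limma).

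Of 11 nuclear regulators of mitochondrial biogenesis 7 were tested and 0 passed (median 0.02). MYC, a broad transcription factor, had 39.9, 34.3 and 35.0 FPKM after si-circ_0000839, against 26.6, 25.4 and 29.1 FPKM in NC, with no overlap (log2 change 0.42, SE 0.08, adjusted p = 0.0743 in limma). PPRC1, a coactivator related to PGC-1, was at 20.2 ± 1.82 FPKM after si-circ_0000839 and 16.8 ± 1.46 FPKM in NC (SD, n = 3 each; adjusted p = 0.283 in limma). Groups did not overlap for 2 genes above and 2 below NC among the 17 tested in DNA maintenance. This held for 2 above NC among 17 in rRNA modification and for 2 above among the 7 regulators. In the lists of transcription, RNA processing and decay, and tRNA charging, with 8, 19 and 22 tested genes, it held for 0. Over all tested genes the groups did not overlap for 18.1%.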

How the data were processed

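RNA of 6 TPC1 samples was sequenced. The authors deposited a single table of FPKM values, whose header also lists each gene's length, position and biotype. The submitters' processing notes name HISAT2 2.0.5 and featureCounts 1.5.0-p3. Strand setting, library selection, genome build and scaling method: not given in the sources used here. All 58735 gene IDs had the coordinates of GENCODE release 29. Multiplied by gene length, 100% of FPKM values above 0 were whole steps of one read within 0.01. This gave the reads per gene and the scaling total of each library. No libraries were identical, with chi-square over degrees of freedom between 3.14 and 10.8 for pairs within a group.

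Groups and replicate numbers came from the titles. FPKM values are not counts, so limma 3.58.1 (R 4.3.3, trended prior) was fitted to log2(FPKM + 1) for the 10674 genes whose mean reached 1 FPKM, with group as the only term and Benjamini-Hochberg adjustment over all of them at 0.05. This scale understates changes of low genes. The script was tested on simulated data. Alternatives were other pseudocounts, filters, scalings and prior variance, a GC and length spline (5 degrees of freedom each), voom, the replicate block and libraries left out. Named were all mRNAs and rRNAs, tRNAs by reads or the 3 smallest p, 2 genes per nuclear list and the 3 highest nuclear copies. Some genes under this rule are not reported here. The members, lists and tests were chosen with earlier results of these data known.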

Additional observations from a re-analysis of the deposited data

How the results depend on the processing

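Of 582 values for the 31 tested mitochondrial genes under 19 alternatives, 580 kept their side of the threshold, 2 passed it that had not (MT-TT and MT-TS2, given above) and 46 had the other sign, all of genes that were not called. The count of mitochondrial genes called was 1 with a filter at 5 FPKM and 0 or 1 when 1 library was left out. The count over the whole table, 41, was 4 with no filter on low values, 68 with a filter at 5 FPKM, 63 under quantile normalization, 220 after the GC and length trend was removed, 84 with voom, 20 to 38 when 1 library was left out (21 and 22 without si-circ_0000839 replicates 1 and 3, 25 and 20 without NC replicates 1 and 3), and 26 without si-circ_0000839 replicate 1 and NC replicate 2, a choice made after seeing the data; the causes were not tested. Of the 41 calls 14 were higher and 27 lower, against 32 and 23 on the TPM scale, 29 and 34 with quantiles equalized, 111 and 109 without the trend, and 47 and 37 with voom. The ratio of mitochondrial read shares stayed between 0.849 and 0.930, the last as a share of summed FPKM, where the groups overlapped. Same-numbered samples had deviations from their group means correlated at -0.15, -0.29 and 0.15. Differently numbered samples ran from -0.30 to 0.35, the highest for si-circ_0000839 replicate 1 with NC replicate 2. Deviations within a group of 3 sum to 0, so these values cannot decide whether the samples were paired. With the replicate block 35 genes were called, 0 of them mitochondrial. Depth limits the 15 tRNAs with a mean under 10 reads.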
